A study of Mus musculus with 16 samples.

Results

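R-spondins and the secreted modulators of WNT signalling were followed here as 10 genes, Rspo1, Rspo2, Rspo3, Sfrp1, Sfrp2, Frzb, Wif1, Dkk1, Dkk2 and Dkk3, out of 18193 genes named on the array. They were chosen as the probe sets that the array annotation assigns to these symbols, 19 probe sets in all, and 6 of the genes had more than 1. Affymetrix Mouse430_2 arrays were hybridised with RNA of mouse embryonic gonads from Wnt4 knock-out and wild-type animals, and the groups were knock-out testis, wild-type testis, knock-out ovary and wild-type ovary, each at embryonic day 14.5 (E14.5) and at E12.5. Each of the 8 groups had 2 arrays, 16 in all, and this small number sets the precision of every value. Embryos were staged by morphology and gonads were genotyped by PCR. Male samples carry the word ovary in their titles and testis in their source, and were taken as testis. The labels give no strain, no description of the Wnt4 allele and no statement of how many embryos went into an array, so p-values cover only the spread between arrays.

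WNT proteins are secreted signals that bind a Frizzled receptor together with LRP5 or LRP6 and stabilise beta-catenin. R-spondins bind LGR receptors and the membrane ligases ZNRF3 and RNF43, which otherwise remove Frizzled from the surface, and so raise the response of a cell to WNT. Secreted frizzled-related proteins and WIF1 bind WNT proteins outside the cell, whereas the Dickkopf proteins DKK1 and DKK2 act on LRP5 and LRP6. In the mouse gonad, Rspo1 and Wnt4 are known as genes of the ovarian pathway.

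The promoters of 6 of the 10 genes were present in the RefSeq table for GRCm38.p6, and 3 are printed: that of Rspo1, which differed by sex, and those of Frzb and Dkk2, whose levels moved together over the arrays. Each is the 250 bases before the annotated start, 5′ to 3′ on the strand of the gene, with CG dinucleotides in capitals. The Rspo1 promoter lies at chr4:124986180-124986429 on the plus strand, that of Frzb at chr2:80447397-80447646 on the minus strand and that of Dkk2 at chr3:132085042-132085291 on the plus strand.
Rspo1: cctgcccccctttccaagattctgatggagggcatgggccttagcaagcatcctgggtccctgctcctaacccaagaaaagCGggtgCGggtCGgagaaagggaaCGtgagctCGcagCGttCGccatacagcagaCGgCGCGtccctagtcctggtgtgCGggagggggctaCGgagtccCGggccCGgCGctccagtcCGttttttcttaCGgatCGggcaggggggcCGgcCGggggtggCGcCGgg
Frzb: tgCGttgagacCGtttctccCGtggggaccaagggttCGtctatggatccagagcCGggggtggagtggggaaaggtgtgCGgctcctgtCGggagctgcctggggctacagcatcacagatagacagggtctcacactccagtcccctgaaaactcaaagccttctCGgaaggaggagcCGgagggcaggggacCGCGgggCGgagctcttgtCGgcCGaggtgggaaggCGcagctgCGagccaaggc
Dkk2: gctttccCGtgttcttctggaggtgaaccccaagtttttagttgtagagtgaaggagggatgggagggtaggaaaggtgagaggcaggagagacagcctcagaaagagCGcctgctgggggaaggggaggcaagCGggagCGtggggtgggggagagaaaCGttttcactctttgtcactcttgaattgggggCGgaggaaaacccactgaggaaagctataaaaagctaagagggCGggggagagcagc
The Rspo1 sequence holds 22 CG dinucleotides and the Frzb sequence 16, against 7 in that of Dkk2 and a median of 6 over 32851 promoters. CTTTGAT, the core of the motif bound by the TCF and LEF partners of beta-catenin, was searched on both strands in windows of 300 bases that add the 50 bases after the start. It was in none of the 6 windows and in 3.73% of all promoters, which says only that these letters are not in these windows.

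Values are deposited probe-set intensities on a linear scale, whose array medians lay between 9.28 and 10.4. Changes are differences of log2(intensity + 4), tested with limma over 12336 genes with Benjamini-Hochberg adjustment and a threshold of 0.05. They understate the change of genes with low intensity. Some arrays stood apart. The 3′ to 5′ ratio of the control transcripts, a measure of RNA integrity, was highest in 3 E12.5 arrays, at 2.27 in replicate 1 of knock-out ovary, at 1.76 in replicate 1 of knock-out testis and at 1.76 in replicate 2 of wild-type ovary, and it was at most 1.36 in every E14.5 array. Transcripts of the opposite sex reached, at E14.5, 16.5% in replicate 2 of knock-out testis, 22.8% in replicate 2 of wild-type testis and 19.9% in replicate 2 of wild-type ovary. At E12.5 they reached 17.9% in replicate 2 of knock-out ovary and 18.2% in replicate 1 of wild-type ovary. No alternative run left out both of these E12.5 arrays. Leaving out that wild-type ovary array, which changed several results below, keeps the replicate of high 3′ to 5′ ratio. The replicates of wild-type testis E12.5 were almost identical, with an SD of their log2 differences of 0.142 against 0.335 or more in the other pairs. Summed Sertoli cell markers read 4055 to 6078 in testis arrays and 237 to 2007 in ovary arrays. Wnt4 itself averaged 327 ± 34.8 in knock-out ovary and 1144 ± 8.92 in wild-type ovary at E14.5 (SD, n = 2 each, log2 change -1.80, limma adjusted p = 0.0445), and 680 ± 226 against 1333 ± 692 at E12.5 (adjusted p = 0.523). The E14.5 call was lost without any 1 of 10 arrays, all 8 of E14.5 and both of wild-type testis E12.5, at log2 -1.91 to -1.69 (adjusted p = 0.0543 to 0.321). In testis it averaged 324 ± 66.2 in knock-out and 633 ± 170 in wild type at E14.5, and 322 ± 128 in knock-out and 487 ± 20.2 in wild type at E12.5, neither past the test. In ovary at E12.5, knock-out replicate 1, the array with the ratio of 2.27, read 839 for Wnt4, against 844 in wild-type replicate 1. Replicate 2 read 520 in knock-out and 1822 in wild type. In the other Wnt4 probe set, 1441687_at, the genotypes overlapped there (log2 -0.89, limma adjusted p = 0.881 over all probe sets). In ovary at E14.5 that probe set did not overlap (log2 -2.16, adjusted p = 0.117). Since the deleted part of the gene is not given in the sources used here, these readings do not check the genotype.

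Of the 10 genes, 9 had a probe set that exceeded the median of 2 arrays or more, and these were tested. Rspo2, an R-spondin known for its part in limb and lung development, was the exception, with both of its probe sets between 3.03 and 6.38 in all 16 arrays and below the array median in each.

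**Figure D1:**
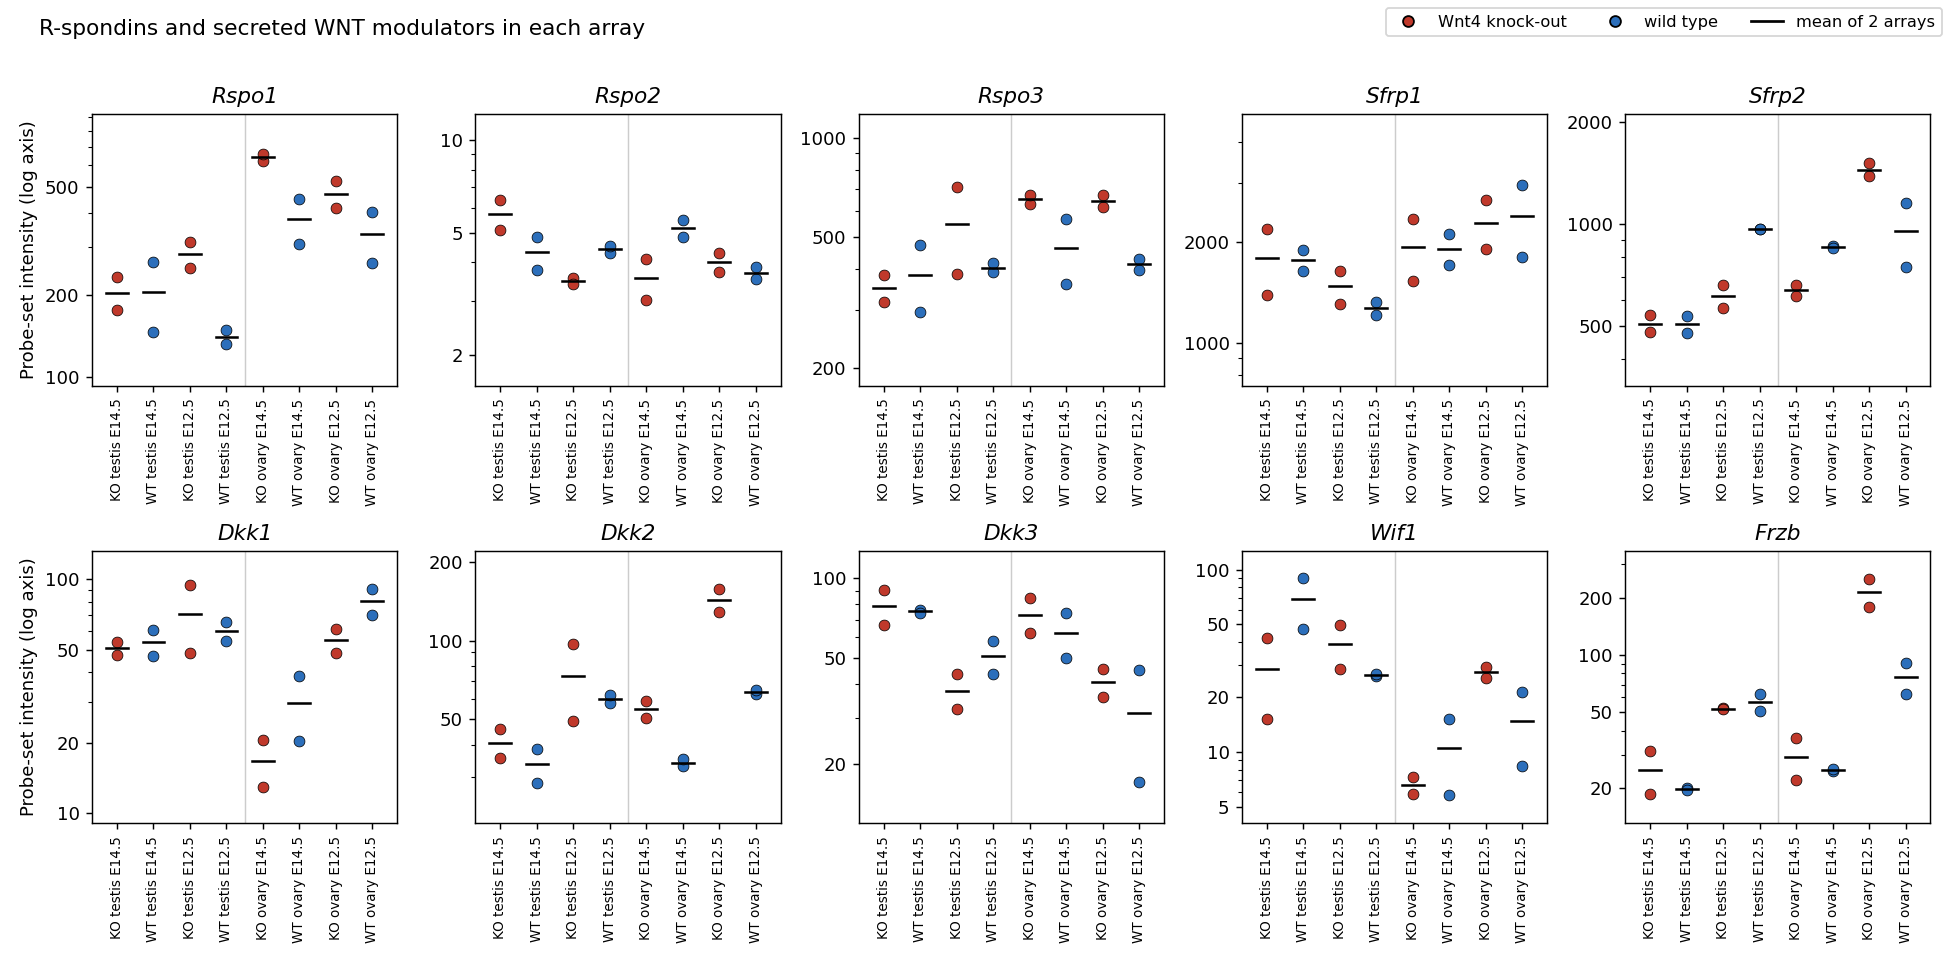
Probe-set intensity (log axis) of the 10 genes in each of the 16 arrays, with a line at the mean of the 2 arrays of a group; red points are Wnt4 knock-out and blue points wild type, and the vertical line parts testis from ovary. Rspo1 read 310 or more in all E14.5 ovary arrays and 265 or less in all E14.5 testis arrays, and Frzb read 178 and 250 in knock-out ovary E12.5 and at most 90.9 in the other arrays.

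The R-spondin whose sex difference passed the test with all arrays fitted together was Rspo1, the member known for its requirement in ovary development. At E14.5 it read 176 and 233 in knock-out testis, against 622 and 663 in knock-out ovary. It read 147 and 265 in wild-type testis, against 450 and 310 in wild-type ovary at the same stage. Testis arrays were below ovary arrays in both genotypes without overlap. At E12.5 it read 314 and 251 in knock-out testis, against 525 and 420 in knock-out ovary. It read 133 and 149 in wild-type testis, against 264 and 406 in wild-type ovary, again without overlap. The difference passed the test in knock-out gonads at E14.5 (testis minus ovary, log2 -1.64, SE 0.30, limma adjusted p = 0.00535) and not in wild type at E14.5 (log2 -0.90, adjusted p = 0.131), in wild type at E12.5 (log2 -1.20, adjusted p = 0.101) or in knock-out at E12.5 (log2 -0.73, adjusted p = 0.218).

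Both wild-type E14.5 Rspo1 values nearest the other sex, 265 in testis and 310 in ovary, came from the replicate 2 arrays with 22.8% and 19.9% of opposite-sex signal. Without the 3 E14.5 arrays of high opposite-sex signal, the wild-type difference was log2 -1.59 and passed the test (adjusted p = 0.0331), with 1 array left in each of these groups and the spread taken from the others. Without the other array of each pair it was smaller, at log2 -0.49 without wild-type testis replicate 1 and -0.64 without wild-type ovary replicate 1. Without knock-out ovary E14.5 replicate 2 or knock-out testis E14.5 replicate 1, the knock-out difference was log2 -1.60 or -1.45 and did not pass (adjusted p = 0.0527 and 0.0652). The wild-type difference at E12.5 did pass without wild-type ovary E12.5 replicate 1, at log2 -1.50 (adjusted p = 0.02), and was log2 -0.89 without replicate 2 of that group (adjusted p = 0.824).

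Between genotypes Rspo1 had no call. Mean Rspo1 was 643 ± 28.8 in knock-out ovary and 380 ± 99.5 in wild-type ovary at E14.5 (SD, n = 2 each), with no call (log2 difference 0.78, adjusted p = 0.632). In testis at E12.5 it was 283 ± 44.9 in knock-out and 141 ± 11 in wild type (log2 0.98, adjusted p = 0.248), and in ovary at E12.5 the log2 difference was 0.51 (adjusted p = 0.706). In testis at E14.5 the genotypes overlapped, with a log2 difference of 0.04. Stage gave no call for Rspo1, with log2 differences between -0.46 in knock-out testis and 0.48 in wild-type testis.

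Rspo3, an R-spondin known for its part in placental and vascular development, was read through 1 of its 2 probe sets, since 1443187_at stayed between 2.96 and 4.61 in every array. In ovary at E12.5 Rspo3 read 673 and 618 in knock-out arrays, against 431 and 399 in wild-type arrays. In ovary at E14.5 it read 631 and 671 in knock-out arrays, against 568 and 362 in wild-type arrays. Knock-out ovary arrays were above wild-type ovary arrays at both stages, by log2 0.63 at E12.5 (adjusted p = 0.615) and 0.52 at E14.5 (adjusted p = 1), and neither passed the test. In testis the genotypes overlapped at both stages, at 319 and 384 (knock-out) and 296 and 473 (wild type) at E14.5, and at 709 and 387 (knock-out) and 391 and 417 (wild type) at E12.5. In knock-out gonads at E14.5, testis and ovary arrays did not overlap, and the difference did not pass (log2 -0.89, adjusted p = 0.111). It did pass with only the arrays of the groups compared (adjusted p = 0.0164).

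Sfrp1 and Sfrp2, secreted frizzled-related proteins that bind WNT proteins, behaved differently. Sfrp1, read by probe set 1448395_at, lay between 1212 and 2976 in the 16 arrays and passed no test in the 12 comparisons between groups. At E12.5 Sfrp1 read, in testis, 1646 and 1304 in knock-out arrays and 1327 and 1212 in wild-type arrays, against 2679 and 1903 in knock-out ovary and 1810 and 2976 in wild-type ovary. In this probe set the sexes did not overlap at that stage, with log2 differences of -0.62 in knock-out (adjusted p = 0.252) and -0.87 in wild type (adjusted p = 0.184). The wild-type difference did pass without wild-type ovary E12.5 replicate 1, at log2 -1.23 (adjusted p = 0.0267), and was log2 -0.51 without replicate 2 of that group (adjusted p = 0.993). The other Sfrp1 probe sets did not all follow. In wild type at E12.5, 1428136_at gave log2 -0.63, with 1216 and 1165 in testis against 1072 and 3168 in ovary, so that the sexes overlapped. The sign was turned in 1460187_at, at 1133 in testis against 951 in ovary (means, log2 0.35), and in 1416594_at, at 503 against 473 (log2 0.52), none past the test. With the mean of all probe sets the wild-type difference was log2 -0.22 (adjusted p = 0.579). At E14.5 the arrays of the sexes overlapped in 1448395_at in both genotypes, at 1388 to 2193 in testis and 1536 to 2344 in ovary. By stage, 1416594_at averaged 1285 at E14.5 against 298 at E12.5 in knock-out ovary, and 965 against 473 in wild-type ovary. In testis it averaged 867 against 347 in knock-out and 967 against 503 in wild type. Means of 1460187_at were also higher at E14.5 in both sexes and genotypes. By contrast, 1428136_at was lower at E14.5 in knock-out ovary, at 1696 against 2783. Ratios of these probe sets by array are given below.

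Sfrp2 had 1 probe set. It read 1514 and 1386 in knock-out ovary at E12.5, against 1160 and 747 in wild-type ovary. Sfrp2 read 616 and 660 in knock-out ovary at E14.5, against 866 and 854 in wild-type ovary. The knock-out testis gave 568 and 663 at E12.5, against 966 and 966 in wild-type testis. Knock-out testis gave 539 and 480 at E14.5, against 477 and 537 in wild-type testis. Knock-out arrays were thus above wild type in the E12.5 ovary, below it in the E12.5 testis and the E14.5 ovary, and mixed with it in the E14.5 testis. None of these passed the test, at log2 0.64 (adjusted p = 0.286), -0.65 (adjusted p = 0.217), -0.43 (adjusted p = 0.797) and 0.01. The difference between the knock-out effects of ovary and testis at E12.5 was log2 1.29 (adjusted p = 0.124), and without wild-type ovary E12.5 replicate 1 it was 1.60 and passed (adjusted p = 0.00975), whereas without replicate 2 of that group it was 0.97 (adjusted p = 0.332).

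With stage, Sfrp2 fell in the knock-out ovary, to 638 ± 30.9 at E14.5 against 1450 ± 90.1 at E12.5 (SD, n = 2 each, log2 -1.18, SE 0.19, adjusted p = 0.00161). It fell in the wild-type testis, to 507 ± 42.6 at E14.5 against 966 at E12.5 in both arrays (log2 -0.93, adjusted p = 0.00814), and not in the wild-type ovary (log2 -0.11, adjusted p = 0.805) or the knock-out testis (log2 -0.27, adjusted p = 0.538). The call in the wild-type testis was lost with the almost identical E12.5 arrays averaged (adjusted p = 0.0794), and on leaving out either of them or wild-type testis E14.5 replicate 1, at log2 -0.93 to -0.84 (adjusted p = 0.0569 to 0.0817), or the 3 E14.5 arrays of high opposite-sex signal (adjusted p = 0.0655). The fall in the knock-out ovary passed in every alternative run and without any single array.

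Between the sexes Sfrp2 was lower in testis in knock-out gonads at E12.5 (log2 -1.23, SE 0.19, adjusted p = 0.00784) and in wild-type gonads at E14.5 (log2 -0.76, adjusted p = 0.0416). The first call was lost without knock-out ovary E12.5 replicate 1 or either knock-out testis E12.5 array, at log2 -1.34 to -1.12 (adjusted p = 0.0537 to 0.0852). The second was lost without any 1 of 10 arrays, which were all 8 of E14.5 and both of wild-type testis E12.5, at log2 -0.85 to -0.68 (adjusted p = 0.0554 to 0.28).

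Frzb encodes sFRP3, a WNT-binding protein known from cartilage. Its fall with stage in the knock-out ovary was the largest change of a member in the 12 comparisons between groups. Probe set 1416658_at read 250 and 178 in knock-out ovary at E12.5, against 90.9 and 62.1 in wild-type ovary. The E12.5 testis gave 52.6 and 51.9 in knock-out arrays, against 62.8 and 50.8 in wild-type arrays. At E14.5 it read 22 and 36.6 in knock-out ovary against 24.7 and 25.4 in wild-type ovary, and 31.3 and 18.8 in knock-out testis against 20 and 19.6 in wild-type testis. The E12.5 knock-out ovary stood above every other group, and all E14.5 arrays were below all E12.5 arrays.

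Frzb fell with stage in the knock-out ovary, to 29.3 at E14.5 against 214 at E12.5 (means, log2 -2.73, SE 0.30, adjusted p = 0.000109, 6.62-fold lower). It fell in the wild-type ovary, to 25 against 76.5 (log2 -1.45, adjusted p = 0.0147), and in the wild-type testis, to 19.8 against 56.8 (log2 -1.35, adjusted p = 0.0138). The knock-out testis, at 25.1 against 52.2, did not pass (log2 -0.99, adjusted p = 0.0979). The fall in the knock-out ovary passed in every alternative run and without any single array. The wild-type calls did not: that in ovary was lost without wild-type ovary E12.5 replicate 1 or E14.5 replicate 1, at log2 -1.43 to -1.19 (adjusted p = 0.0515 to 0.0986), and that in testis without any 1 of the 4 wild-type testis arrays, at log2 -1.49 to -1.20 (adjusted p = 0.0609 to 0.135), or with the E12.5 pair averaged (adjusted p = 0.103). Both were also lost without the 3 E14.5 arrays of high opposite-sex signal (adjusted p = 0.0725 in ovary and 0.105 in testis).

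In knock-out gonads at E12.5 Frzb was lower in testis than in ovary (log2 -1.93, SE 0.30, adjusted p = 0.00874), a call lost without knock-out ovary replicate 1 or knock-out testis replicate 2 of that stage, at log2 -1.92 to -1.69 (adjusted p = 0.076 to 0.103). It was also lost without the 3 E12.5 arrays of high 3′ to 5′ ratio (log2 -1.70, adjusted p = 0.134) and with only the arrays of the groups compared (adjusted p = 0.147). Against wild type, the E12.5 knock-out ovary was 2.71-fold higher, which did not pass the test (log2 1.44, SE 0.30, adjusted p = 0.072). It did pass without knock-out ovary E12.5 replicate 2, at log2 1.68 (adjusted p = 0.0398), and was log2 1.20 without replicate 1 of that group (adjusted p = 0.632) and 0.94 without the 3 arrays of high 3′ to 5′ ratio (adjusted p = 0.516).

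The other Frzb probe set, 1448424_at, did not follow in ovary. In wild-type testis it was lower at the later stage, at 9.45 ± 1.24 at E14.5 against 36.4 ± 3.07 at E12.5 (SD, n = 2 each). In knock-out testis it averaged 12.7 at E14.5 and 12.3 at E12.5. It read 8.18 and 25.4 in knock-out ovary at E12.5, against 28.2 and 6.34 in wild-type ovary, and in each pair the low value came from the array of high 3′ to 5′ ratio. Its log2 differences, fitted with all probe sets as separate features, were 0.05 between genotypes in the E12.5 ovary (adjusted p = 0.99), -0.20 between E14.5 and E12.5 in the knock-out ovary (adjusted p = 0.811) and -0.11 in the wild-type ovary (adjusted p = 0.946). With the mean of both probe sets, the fall in the knock-out ovary was log2 -1.46, and the call in the wild-type ovary (log2 -0.78, adjusted p = 0.195) and that between the sexes (log2 -1.08, adjusted p = 0.129) were lost.

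**Figure D2:**
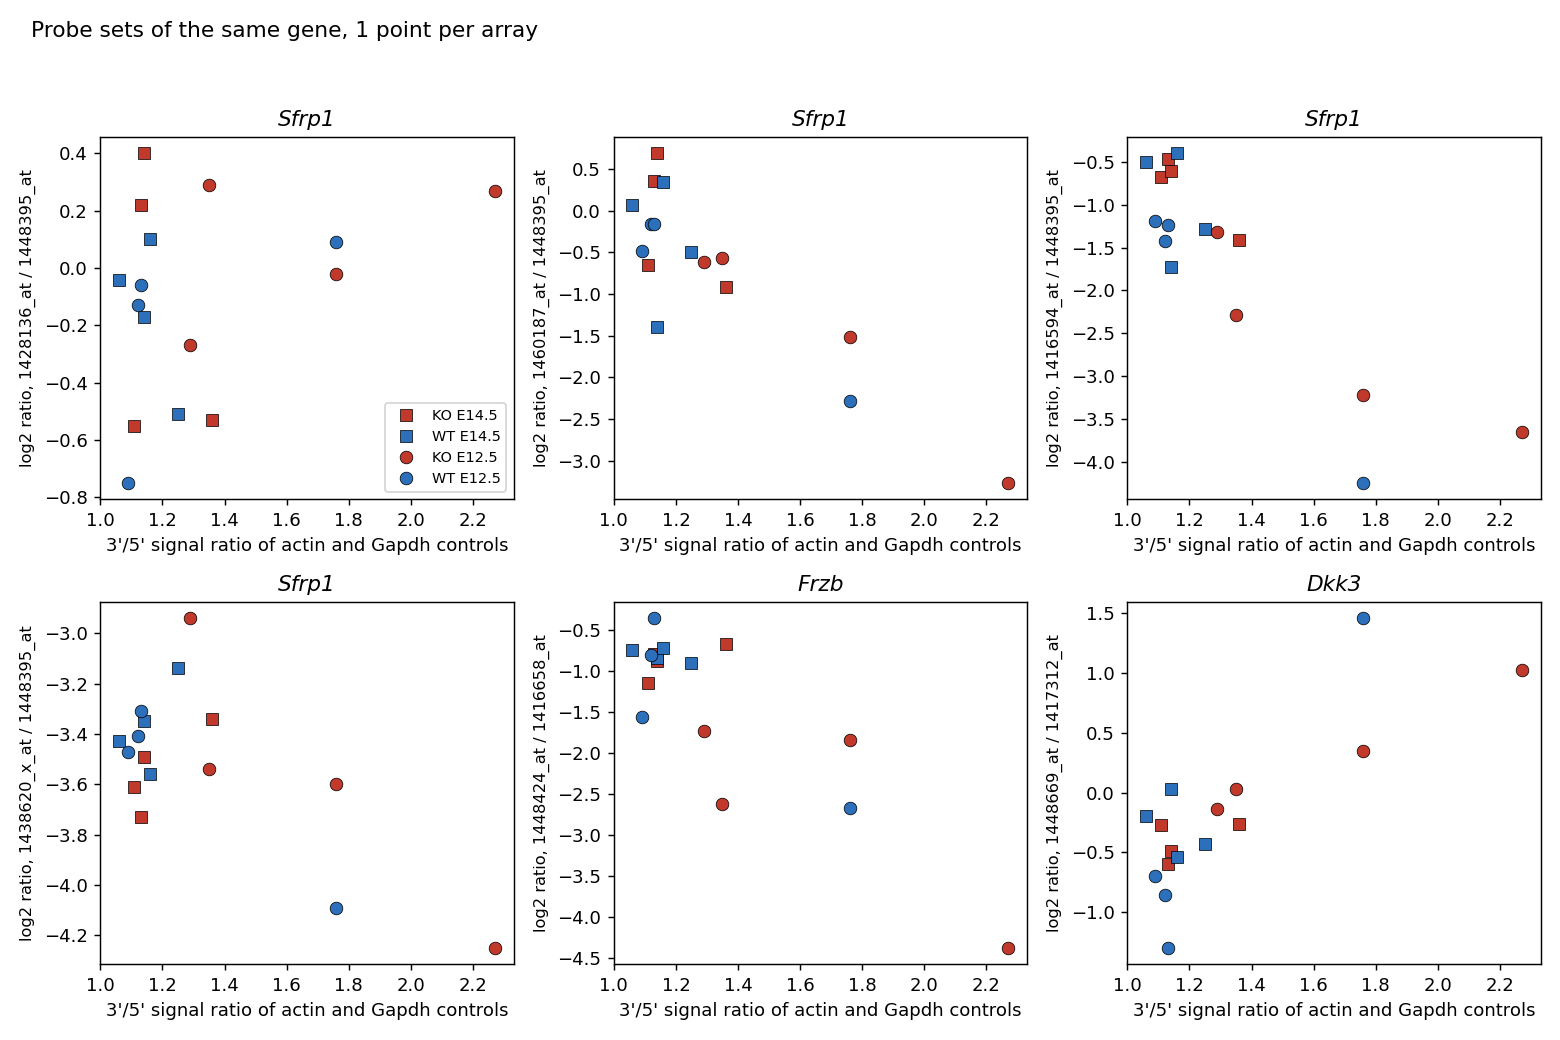
Log2 ratio of 2 probe sets of a gene within each array (y axis) against the 3′ to 5′ ratio of the control transcripts (x axis), for 4 probe sets of Sfrp1 and 1 each of Frzb and Dkk3 over the probe set used for the gene; colour gives the genotype and shape the stage. In the 3 E12.5 arrays of high control ratio, Sfrp1 1416594_at over 1448395_at lay at -4.25 to -3.22, against -2.29 to -1.19 in the other 5 E12.5 arrays and -1.73 to -0.40 in the 8 E14.5 arrays.

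The plot of probe-set ratios shows where readings of 1 gene depended on the probe set. For Sfrp1, 1416594_at over 1448395_at lay at log2 -4.25 to -3.22 in the 3 arrays of high control ratio, below all other arrays, and 1460187_at over 1448395_at at -3.27 to -1.52 there, against -0.62 to -0.16 in the other 5 E12.5 arrays. For Frzb, 1448424_at over 1416658_at lay at -4.38 to -1.84 in those 3 arrays, at -2.63 to -0.36 in the other 5 and at -1.15 to -0.67 at E14.5. For Dkk3 the order was turned, with 1448669_at over 1417312_at at 0.35 to 1.46 in the 3 arrays, against -1.30 to 0.03 in the other 5 and -0.60 to 0.03 at E14.5. The part of RNA integrity in these ratios was not tested.

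Wif1 encodes WNT inhibitory factor 1, which binds WNT proteins. Its single probe set was above the array median in 12 of 16 arrays. Its E14.5 values were 15.2 and 41.9 in knock-out testis and 47.5 and 90.2 in wild-type testis, against 7.3 and 5.91 in knock-out ovary and 5.82 and 15.1 in wild-type ovary. Its E12.5 values were 28.6 and 49.6 in knock-out testis and 26.1 and 26.9 in wild-type testis, against 29.3 and 25.6 in knock-out ovary and 21.3 and 8.4 in wild-type ovary. The testis was above the ovary at E14.5, without overlap within a genotype, and the highest ovary value of that stage came from the wild-type array with 19.9% of opposite-sex signal. Wif1 was higher in wild-type testis than in wild-type ovary at E14.5, by 5.08-fold (log2 2.35, SE 0.46, adjusted p = 0.0115), and in knock-out gonads the difference did not pass (log2 1.49, adjusted p = 0.0879).

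The wild-type call was lost without wild-type ovary E14.5 replicate 1 or wild-type testis E14.5 replicate 2, at log2 1.86 to 1.91 (adjusted p = 0.127 to 0.194). The knock-out difference did pass without knock-out testis E14.5 replicate 1, at log2 2.12 (adjusted p = 0.0431), and was log2 0.86 without replicate 2 of that group (adjusted p = 0.645), the array with 16.5% of opposite-sex signal, or without all 3 such arrays of E14.5 (adjusted p = 0.485). With stage, Wif1 fell in the knock-out ovary, to 6.61 at E14.5 against 27.5 at E12.5 (means, log2 -1.57, SE 0.46, adjusted p = 0.0394), a call lost without any 1 of 6 arrays, the 4 of knock-out ovary and both of wild-type testis E12.5, at log2 -1.66 to -1.48 (adjusted p = 0.0575 to 0.225), and without the 3 arrays of high 3′ to 5′ ratio (adjusted p = 0.144). In the wild-type testis it was higher at E14.5 by log2 1.19 (adjusted p = 0.116), which did not pass, although it did with only the arrays of the groups compared (adjusted p = 0.0319). Between genotypes Wif1 gave log2 -1.23 in testis at E14.5 (adjusted p = 1) and 0.83 in ovary at E12.5 (adjusted p = 0.7). The testis difference rested on single arrays, at log2 -0.60 without knock-out testis replicate 1 and -1.86 without its replicate 2.

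Dkk1, a Dickkopf inhibitor known for its part in head formation, was read by 1420360_at. Dkk1 at E14.5 read 47.3 and 54.1 in knock-out testis and 60.9 and 47 in wild-type testis, against 13 and 20.6 in knock-out ovary and 20.4 and 38.7 in wild-type ovary. Dkk1 at E12.5 read 48.2 and 94 in knock-out testis and 65.8 and 54.5 in wild-type testis, against 48.4 and 61.4 in knock-out ovary and 70.3 and 90.6 in wild-type ovary. The E14.5 ovary was the lowest setting in both genotypes, and its highest value again came from the wild-type array with opposite-sex signal.

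Dkk1 was higher in testis than in ovary in knock-out gonads at E14.5 (log2 1.42, SE 0.35, adjusted p = 0.0312), and the wild-type difference did not pass (log2 0.83, adjusted p = 0.25). It fell with stage in the knock-out ovary (log2 -1.52, SE 0.35, adjusted p = 0.0144) and the wild-type ovary (log2 -1.38, adjusted p = 0.0415), and in testis the changes were log2 -0.39 in knock-out and -0.15 in wild type, neither past the test. The call between the sexes was lost without any 1 of the 4 knock-out E14.5 arrays or of the wild-type testis E12.5 pair, at log2 1.15 to 1.69 (adjusted p = 0.0518 to 0.259), or without the 3 E14.5 arrays of high opposite-sex signal (adjusted p = 0.182). The fall in the knock-out ovary was lost without its replicate 1 at either stage, at log2 -1.68 to -1.25 (adjusted p = 0.0568 to 0.128). The fall in the wild-type ovary was lost without any 1 of 10 arrays, which were wild-type ovary E12.5 replicate 2, wild-type ovary E14.5 replicate 1, both of wild-type testis E12.5 and the 6 E14.5 arrays of the other groups, at log2 -1.38 to -0.97 (adjusted p = 0.05 to 0.309), and without the 3 arrays of high 3′ to 5′ ratio (adjusted p = 0.138). The other probe set, 1458232_at, at 4.39 to 22.7 in all arrays, fell with stage in the wild-type ovary (log2 -1.22, adjusted p = 0.031 over all probe sets) and gave log2 -0.46 in the knock-out ovary (adjusted p = 0.247).

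Dkk2, a Dickkopf protein that can raise or lower WNT signalling depending on the receptors present, had 1 probe set. It read 129 and 157 in knock-out ovary at E12.5, against 62.3 and 64.8 in wild-type ovary. At E14.5 it read 50.7 and 58.6 in knock-out ovary, against 33 and 35.1 in wild-type ovary. Knock-out ovary arrays were above wild type at both stages without overlap, and neither difference passed the test (log2 1.12, SE 0.30, adjusted p = 0.183 at E12.5, and log2 0.62, adjusted p = 0.9 at E14.5). Testis arrays of the genotypes overlapped, at 45.8 and 35.5 (knock-out) and 28.6 and 38.5 (wild type) at E14.5, and at 96.8 and 49.4 (knock-out) and 57.9 and 62.1 (wild type) at E12.5.

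With stage Dkk2 fell in the knock-out ovary, to 54.7 at E14.5 against 143 at E12.5 (means, log2 -1.32, SE 0.30, adjusted p = 0.0123). The call was lost without either knock-out ovary E14.5 array, at log2 -1.42 to -1.23 (adjusted p = 0.0529 to 0.0918). In the other settings the log2 changes were -0.83 in wild-type ovary (adjusted p = 0.149), -0.78 in wild-type testis (adjusted p = 0.11) and -0.73 in knock-out testis (adjusted p = 0.235), which did not pass. The last did pass without knock-out testis E12.5 replicate 2, at log2 -1.18 (adjusted p = 0.0454), and was log2 -0.27 without replicate 1 of that group (adjusted p = 0.947). In knock-out gonads at E12.5, Dkk2 was 2-fold lower in testis than in ovary without passing (adjusted p = 0.118), and without knock-out testis E12.5 replicate 1 the log2 difference was -1.46 and passed (adjusted p = 0.0469), whereas without replicate 2 it was -0.54 (adjusted p = 0.382).

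Dkk3, a divergent member of the Dickkopf family, passed no test in the 12 comparisons between groups. In probe set 1417312_at the E14.5 arrays gave 90.4 and 66.6 in knock-out testis, 76.2 and 74.2 in wild-type testis, 62.1 and 84.1 in knock-out ovary and 50.2 and 74.1 in wild-type ovary. The E12.5 arrays gave 32.2 and 43.6 in knock-out testis, 43.8 and 58 in wild-type testis, 35.7 and 45.6 in knock-out ovary and 45.1 and 17.2 in wild-type ovary. All but 1 of the 8 E14.5 arrays were above all 8 E12.5 arrays, and the log2 changes with stage lay between 0.54 in wild-type testis and 1.01 in wild-type ovary (adjusted p = 0.157 in the last). That last change did pass without wild-type ovary E12.5 replicate 1, at log2 1.62 (adjusted p = 0.0144), and was log2 0.41 without replicate 2 of that group, an array of high 3′ to 5′ ratio (adjusted p = 0.75). The other Dkk3 probe set, 1448669_at, of like brightness with a median of 50.5 against 54.1, did not show this order of stages. Its highest value, 77.2, came from knock-out ovary at E12.5, and that group averaged 54.4 at E14.5 against 61.8 at E12.5 (log2 -0.18, adjusted p = 0.777 over all probe sets). Its log2 changes with stage were 1.30 in wild-type testis (adjusted p = 0.0518), 0.49 in knock-out testis and 0.38 in wild-type ovary, none past the test.

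Counted over the 9 tested genes, no knock-out comparison gave a call in limma. In ovary at E12.5 the count was 0 of 9, where 0.292% of all 12336 genes were called, and 4 of 9 (Frzb, Dkk2, Sfrp2 and Rspo3) had an unadjusted p under 0.05, against 8.02% of all genes. In ovary at E14.5 it was 0 of 9 against 0.543% of all genes, with 2 of 9 (Rspo1 and Sfrp2) at an unadjusted p under 0.05, against 5.74%. In testis at E12.5 it was 0 of 9 against 0.0405% of all genes, with 2 of 9 (Rspo1 and Sfrp2) at such a p, against 11.1%. In testis at E14.5 it was 0 of 9 against 0.00811%, with 1 of 9 (Wif1) at such a p, against 1.48%. The median log2 difference of the 9 genes in the E12.5 ovary was 0.63, against 0.0337 over all genes, and in the E14.5 ovary it was 0.16, against -0.0207. These 4 comparisons share no arrays.

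**Figure D3:**
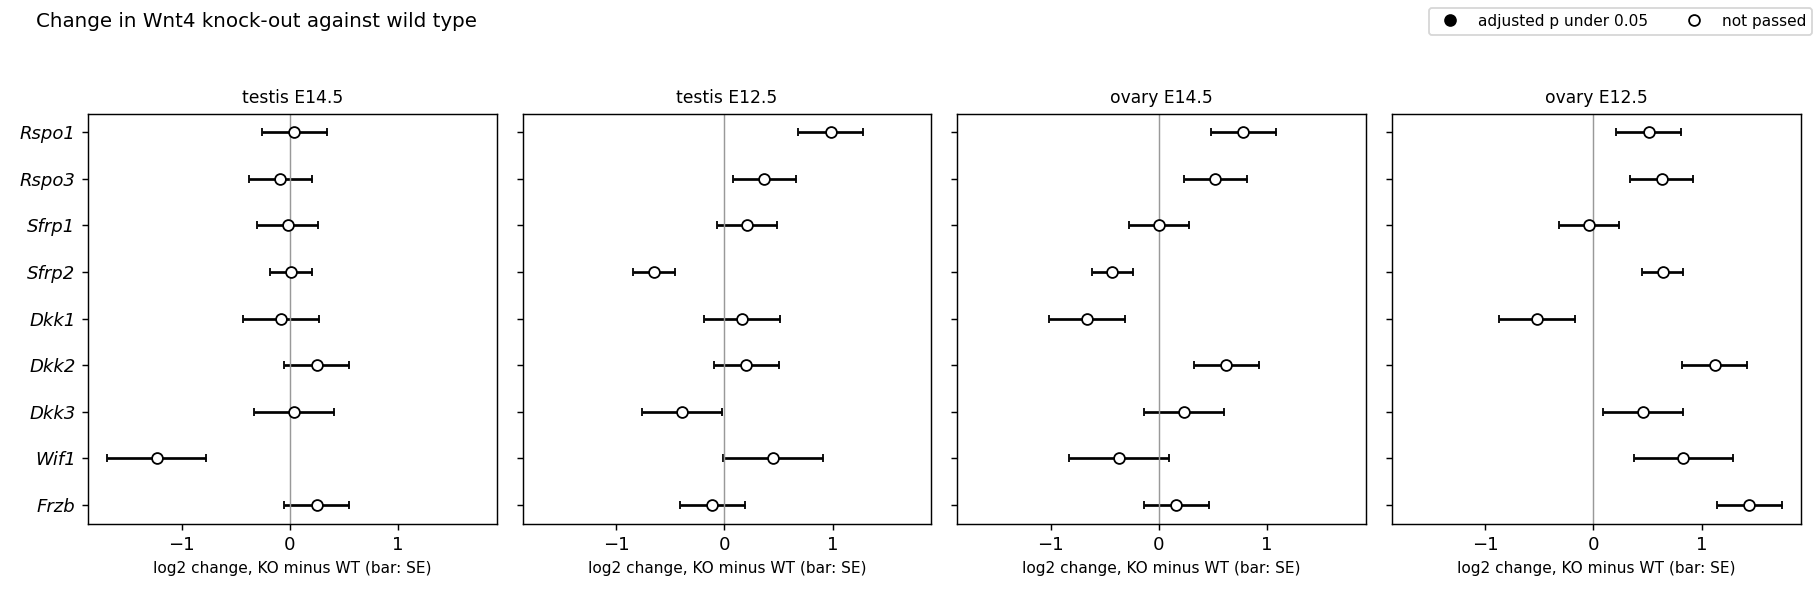
Log2 difference between Wnt4 knock-out and wild type (x axis, bars are SE of the limma fit) for the 9 tested genes, with 1 panel for each sex and stage. All points are open, since none of the 9 genes passed the test in any panel; the highest is Frzb in ovary at E12.5, at 1.44.

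Between the sexes, the count was 2 of 9 in knock-out gonads at E14.5, Rspo1 lower and Dkk1 higher in testis, where 5.33% of all genes were called. It was 2 of 9 in wild type at E14.5, Wif1 higher and Sfrp2 lower in testis, against 3.83% of all genes. It was 2 of 9 in knock-out gonads at E12.5, Sfrp2 and Frzb, both lower in testis, against 1.14%. In wild type at E12.5 it was 0 of 9 against 0.608%, with 2 of 9 (Rspo1 and Sfrp1) at an unadjusted p under 0.05, against 16.7% of all genes, and without wild-type ovary E12.5 replicate 1 the count there was 3 (Rspo1, Sfrp1 and Dkk3, the last at log2 1.36 with an adjusted p of 0.0274, where probe set 1448669_at gave log2 -0.71 over all arrays). Sfrp2 was called both in wild type at E14.5 and in knock-out gonads at E12.5, and the other calls with all arrays were of different genes. Whether the sex difference changed with stage in wild type was tested directly: 0 of 9 passed, where 0.154% of all genes did. Wif1 (log2 1.56, adjusted p = 0.236), Dkk1 (log2 1.23, adjusted p = 0.226) and Sfrp2 (log2 -0.81, adjusted p = 0.165), 3 of 9, had an unadjusted p under 0.05, as had 18.2% of all genes, and Sfrp2 did pass without wild-type ovary E12.5 replicate 1, at log2 -1.13 (adjusted p = 0.0236), and was log2 -0.50 without replicate 2 of that group (adjusted p = 0.445).

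**Figure D4:**
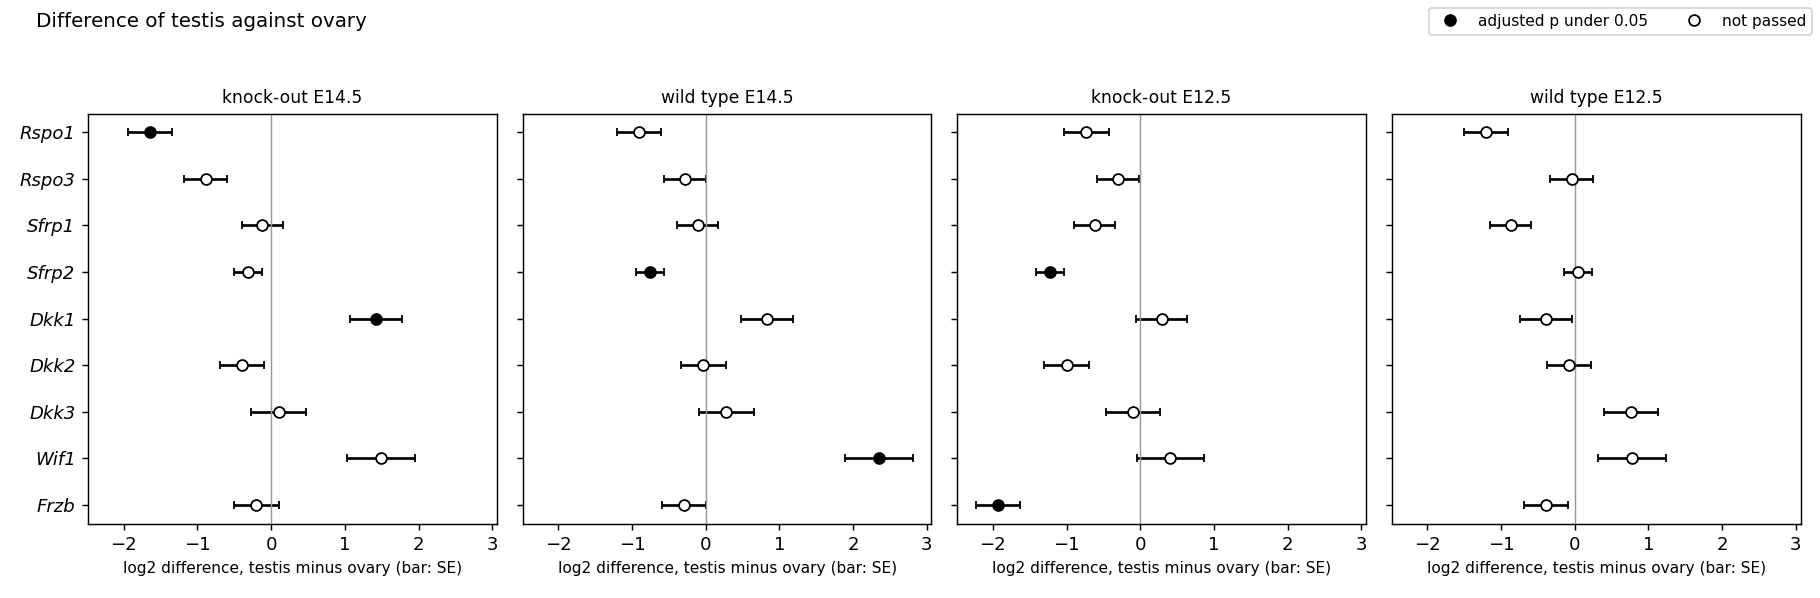
Log2 difference between testis and ovary (x axis, bars are SE of the limma fit) for the 9 tested genes in each genotype and stage; filled points passed the test. Rspo1 lies left of 0 in all 4 panels, between -1.64 and -0.73, and Wif1 right of 0 in all 4, between 0.41 and 2.35.

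With stage, 5 of 9 genes fell in the knock-out ovary, Frzb, Sfrp2, Dkk2, Dkk1 and Wif1, where 8.46% of all genes fell and 13.8% were called in either direction. In the wild-type ovary 2 of 9 fell, Frzb and Dkk1, against 1.86% of all genes falling and 4.36% called. In the wild-type testis 2 of 9 fell, Sfrp2 and Frzb, against 3.86% falling and 10.6% called. In the knock-out testis the count was 0 of 9 against 4.04% of all genes, with 3 of 9 (Frzb, Dkk3 and Dkk2) at an unadjusted p under 0.05, against 16.3%. No member was called higher at E14.5 in these 4 settings, with each gene read by its probe set of highest mean. Dkk3 in wild-type ovary was so without 1 array, and Wif1 in wild-type testis with only the arrays compared, as given above. These cases may not be a full list over the alternative runs. The median log2 change of the 9 genes in the knock-out ovary was -1.18, against -0.103 over all genes. The stage, sex and knock-out comparisons of a group share its arrays, so calls that rest on the E12.5 knock-out ovary are not separate observations.

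**Figure D5:**
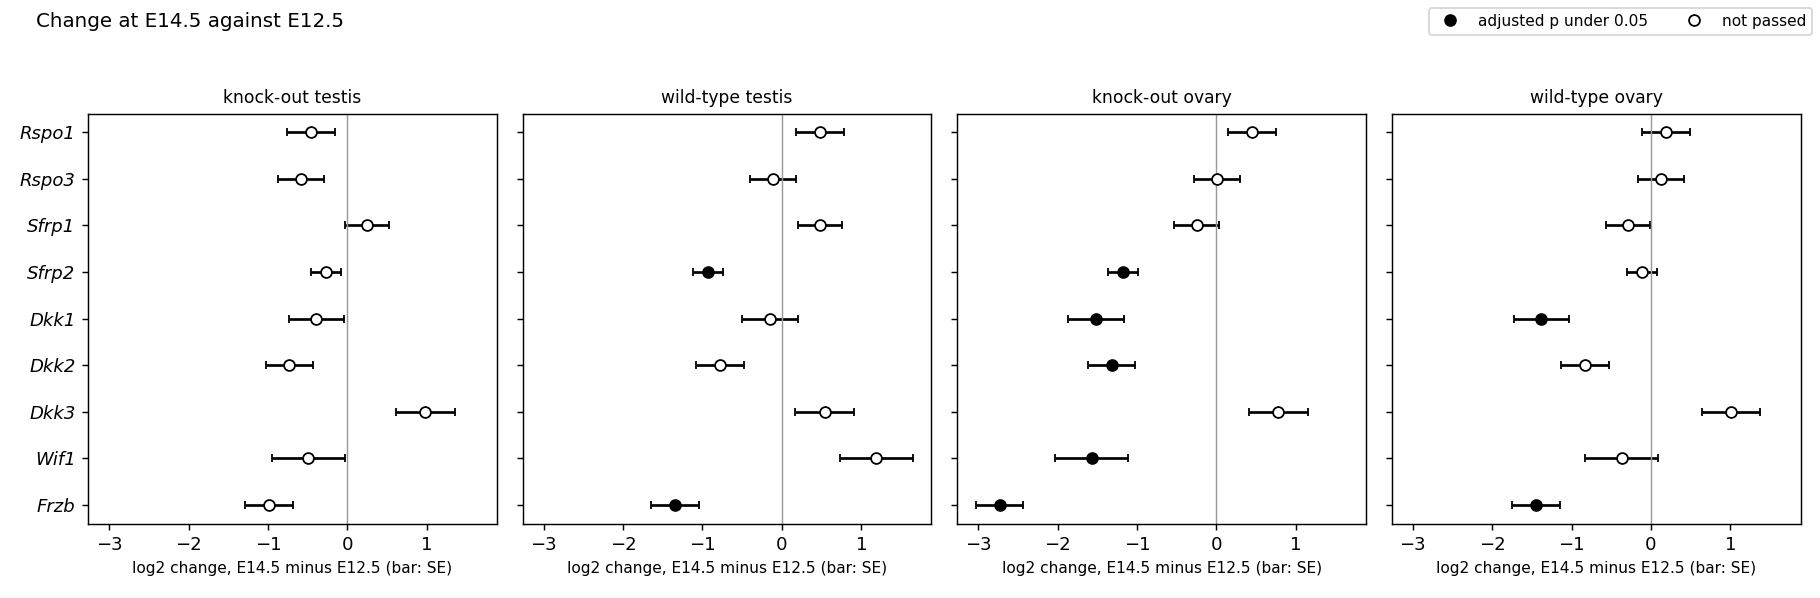
Log2 change between E14.5 and E12.5 (x axis, bars are SE of the limma fit) for the 9 tested genes in each genotype and sex; filled points passed the test. Frzb lies left of 0 in all 4 panels, between -2.73 and -0.99, and Dkk3, by probe set 1417312_at, right of 0 in all 4, between 0.54 and 1.01.

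Whether the knock-out effect differed between stages or sexes was tested directly and gave 0 of 9 calls each time. In ovary, E14.5 against E12.5, 0% of all genes were called and 2 of 9 members had an unadjusted p under 0.05, Sfrp2 (log2 -1.07, adjusted p = 0.585) and Frzb (log2 -1.28, adjusted p = 0.924), against 4.52% of all genes. In testis 0.00811% of all genes were called, and 3 of 9 members (Rspo1, Sfrp2 and Wif1) had such a p, against 4.56%. For ovary against testis, 0.113% of all genes were called at E12.5, with 3 of 9 members at an unadjusted p under 0.05, Sfrp2, Frzb (log2 1.55, adjusted p = 0.359) and Dkk2 (log2 0.92, adjusted p = 0.808), against 6.06% of all genes. At E14.5 0% of all genes were called, and 0 of 9 members had such a p, against 2.39%.

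Markers of other cell types differed between the same arrays. Of 4 markers of chromaffin cells and sympathetic neurons, 3 were measured (Th, Dbh and Chga), and their summed intensity was 841 and 296 in knock-out ovary at E12.5, against 138 and 85.3 in wild-type ovary. It was 65.7 and 37.4 in knock-out testis and 163 and 190 in wild-type testis at E12.5, and 15.2 to 23.8 in all E14.5 arrays, where Th read 3.53 to 5.76, below the array medians. The group of highest Frzb and Dkk2 was thus also the group of highest chromaffin and sympathetic markers. Summed striated muscle markers read 116 and 341 in knock-out ovary at E12.5, against 41.1 and 39.9 in wild-type ovary. For the stage changes, 4 of 4 cartilage markers summed to 32.9 to 92.6 at E14.5, against 235 to 644 at E12.5. This fall rested on Col2a1 and Col9a1, since Acan (4.97 to 10.9) and Matn1 (2.99 to 4.58) did not pass the filter. The 2 measured erythroid markers of 3 summed to 361 to 1489 at E14.5, against 7803 to 11205 at E12.5. That sum was in effect Hbb-bh1 alone, since Hba-a1 read 3.08 to 4.83 in all arrays. In whole gonads fewer cells of a type and less RNA per cell cannot be told apart, and the part of these cell types in the changes of Frzb, Dkk2 and Sfrp2 was not tested.

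Gonadal markers differed in level between the genotypes as well, with few calls. Summed pre-granulosa markers, of which 6 of 6 were measured, read 276 and 226 in knock-out ovary at E12.5 against 1509 and 1994 in wild-type ovary, and 987 and 1080 against 3303 and 2060 at E14.5. Of the 6, 1 (Fst) fell at E12.5, where 0.292% of all genes were called, and 2 (Irx5 and Runx1) fell at E14.5, against 0.543%. An unadjusted limma p under 0.05 was found in 5 of 6 at E12.5, against 8.02% of all genes. At E14.5 it was found in 4 of 6, against 5.74%. Their median log2 difference was -1.08 at E12.5 and -1.41 at E14.5. Rspo1 averaged higher in the knock-out ovary at both stages without a call, as given above. Summed fetal Leydig markers, 4 measured of 5, read 1085 and 584 in knock-out ovary at E12.5, against 146 and 146 in wild-type ovary, and 0 of the 4 passed in limma, with 2 of 4 at an unadjusted p under 0.05, against 8.02% of all genes.

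The receptors of these proteins were mostly uncalled. Lgr5, an R-spondin receptor and itself a known WNT target, fell in the knock-out ovary, to 17.3 against 115 in wild type at E14.5 (means, log2 -2.45, SE 0.28, adjusted p = 0.00235), and to 11.7 against 39.9 at E12.5 (log2 -1.48, adjusted p = 0.0493). In wild type Lgr5 was lower in testis than in ovary at E14.5 (log2 -1.71, adjusted p = 0.00462), and it rose with stage in the ovary (log2 1.41, adjusted p = 0.0116). The E14.5 knock-out call held without any single array, whereas that at E12.5 was lost without any 1 of 13 arrays, all but wild-type ovary E14.5 replicates 1 and 2 and knock-out ovary E12.5 replicate 2, at log2 -1.62 to -1.34 (adjusted p = 0.0541 to 0.376). The sex call was lost without wild-type ovary E14.5 replicate 1 or wild-type testis E14.5 replicate 2 (log2 -1.40 to -1.36), and the stage call without wild-type ovary E14.5 replicate 1 (log2 1.10). With only the arrays of the groups compared, each of these Lgr5 calls was lost, that of the E14.5 knock-out included. The E12.5 knock-out call was also lost with a pseudocount of 16, no filter, a stricter filter, quantile normalization or the replicate block. The mean of probe sets, all probe sets as separate features and no variance trend lost it too. Lgr4, another R-spondin receptor, read 834 to 1841 in the 16 arrays, Lgr6 6.97 to 18.4, the ligases Znrf3 205 to 333 and Rnf43 6 to 17, the co-receptors Lrp5 5.3 to 27.1 and Lrp6 532 to 1016, and Kremen1, which binds Dickkopf proteins, 23.4 to 49.9. These 7 genes passed no test in any of the 17 comparisons and interactions, so that in the knock-out ovary 1 of 8 tested receptor genes fell at each stage, where 0.292% of all genes were called at E12.5 and 0.543% at E14.5. The median log2 difference of the receptors was -0.37 at E12.5, against 0.0337 over all genes, and -0.27 at E14.5, against -0.0207.

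Among 9 other extracellular WNT regulators 4 were tested, and Rspo4, Sfrp4, Dkk4, Dkkl1 and Sost stayed at or below 9.58 in all arrays. Notum, an enzyme outside the cell that removes a lipid from WNT proteins, fell in the knock-out ovary at E12.5, to 10.7 against 96 in wild type (log2 -2.66, SE 0.46, adjusted p = 0.0331), and at E14.5, to 12.4 against 146 (log2 -3.21, adjusted p = 0.00641). It was 1 of 4 to pass at each stage, against 0.292% of all genes at E12.5 and 0.543% at E14.5. The Notum call in ovary at E12.5 was lost without any 1 of 6 arrays (wild-type ovary E12.5 replicate 2, knock-out ovary E12.5 replicate 1, both of wild-type testis E12.5 and both of knock-out ovary E14.5, at log2 -2.75 to -2.08), and the E14.5 call without either knock-out ovary E14.5 array, at log2 -3.38 to -3.03. That at E12.5 was also lost with the mean of probe sets, all probe sets as separate features or only the arrays compared. It was lost too with the wild-type testis E12.5 pair averaged, or without the 3 arrays of high 3′ to 5′ ratio. Sostdc1, a secreted antagonist of WNT and BMP signals, was higher in wild-type testis than in wild-type ovary at E14.5 (log2 2.65, adjusted p = 0.0239) and rose with stage in the wild-type testis (log2 2.83, adjusted p = 0.00934) and the knock-out ovary (log2 2.15, adjusted p = 0.0312). Apcdd1, a membrane inhibitor of WNT signalling, rose with stage in the knock-out ovary (log2 1.41, adjusted p = 0.0183), at 1475 and 2519 at E14.5 against 746 and 696 at E12.5. The wild-type ovary read higher at both stages and also rose without overlap, at 5568 and 3568 against 1738 and 2201, without a call. Single arrays decided these calls too. The Sostdc1 sex call was lost without either wild-type testis E14.5 array or wild-type ovary E14.5 replicate 1 (log2 1.49 to 2.83), and its stage calls without either wild-type testis E12.5 array or wild-type testis E14.5 replicate 2 (log2 2.65 to 2.92), and without knock-out ovary E12.5 replicate 1 or either knock-out ovary E14.5 array (log2 1.61 to 2.53). The Apcdd1 call was lost without knock-out ovary E12.5 replicate 1 or E14.5 replicate 2 (log2 1.03 to 1.47).

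Of 7 genes known as targets of beta-catenin 6 were tested. In the knock-out ovary 0 of 6 passed in limma at E12.5, against 0.292% of all genes, and 3 of 6 had an unadjusted p under 0.05, against 8.02%. At E14.5 1 of 6 fell, against 0.543% of all genes called: Nkd2, an intracellular WNT inhibitor, at 15.1 against 54.2 in wild type (log2 -1.56, SE 0.32, adjusted p = 0.0486). The median log2 difference of the 6 targets was -1.12 at E12.5, against 0.0337 over all genes, and -1.42 at E14.5, against -0.0207. Nkd2 also rose with stage in the wild-type ovary (log2 1.65, adjusted p = 0.00913), and Tnfrsf19 was lower in wild-type testis than in wild-type ovary at E14.5 (log2 -2.35, adjusted p = 0.00983). The Nkd2 knock-out call was lost without any 1 of 12 arrays, all but knock-out ovary E12.5 replicate 1, wild-type ovary E14.5 replicate 2 and both of knock-out testis E14.5, at log2 -1.74 to -1.12 (adjusted p = 0.0501 to 0.428). Its stage call was lost without wild-type ovary E14.5 replicate 1 (log2 1.21), and the Tnfrsf19 call without replicate 1 of wild-type testis or wild-type ovary at E14.5 (log2 -2.16 to -2.09).

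Over the 16 arrays, which share groups, stages and array quality, the levels of the members were related in part. Dkk2 and Frzb had a Pearson r of 0.90, Sfrp2 and Frzb 0.84, and Rspo1 and Rspo3 0.78, whereas Dkk3 and Frzb had -0.58 and Rspo1 and Dkk1 -0.57. Among all tested genes the pattern most like that of Rspo1 was that of Ildr2 (r = 0.96), followed by Cpe (0.89) and Wnt9a (0.88). For Frzb the nearest were Scnn1b (0.96), Cck (0.95) and Disp2 (0.94), and for Dkk2 they were Bmper (0.95), Nrsn1 (0.93) and Ebf3 (0.91). The nearest gene was Rab38 for Rspo3 (0.89), Mlxip for Sfrp1 (0.91), Rbm24 for Sfrp2 (0.89), Jakmip2 for Wif1 (0.90), Cyp1b1 for Dkk1 (0.88) and Cd9 for Dkk3 (0.93). These are descriptions over 16 arrays in which groups differ, with no test.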

How the data were processed

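Deposited values are linear probe-set intensities of 45101 probe sets in 16 arrays. The authors used MAS5, per the submitters' processing notes, which name no other tool; its version and scaling are not given here. The deposited intensity scale was kept (array means 272 to 288) and log2(intensity + 4) was computed. Symbols came from the platform annotation, updated through Entrez numbers, and 34958 probe sets had 1 symbol, 932 several and 9211 none here. The filter asked for an intensity over the array median on 2 or more arrays, which left 25620 probe sets. A gene was its probe set of highest mean, which gave 12336 genes. Groups are those of the labels. A mean per group was fitted over all arrays in limma 3.58.1 (R 4.3.3) with a variance trend (8 residual and 5.29 prior degrees of freedom), two-sided, with Benjamini-Hochberg adjustment over all genes, for 12 comparisons and 5 interactions. The code was tested on simulated data. Named genes are the members, Wnt4, genes of 3 WNT lists past the threshold, receptors, and the genes nearest to each member by Pearson r. Members and lists were chosen with earlier results of these data known. Alternatives covered pseudocount, filter, normalization, probe set summary, variance model, replicate block, arrays fitted and each array left out. Promoters came from RefSeq (GRCm38.p6). Protein sequences were not used here. Figures used Python 3.11.15.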

Additional observations from a re-analysis of the deposited data

How the results depend on the processing

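Of 51 member results, 0 changed sign under 13 other settings or with each of 16 arrays left out. These results were chosen for an unadjusted limma p under 0.05 in the main fit. That choice leaves little room for a change of sign, so the count does not measure how firm they are. No setting read a gene through another probe set alone, and some other Sfrp1 probe sets had the sign turned, as given above. Counts of members called that left the 1.5-fold range were as follows. For knock-out against wild type in ovary E12.5, main 0, the count was 1 with a pseudocount of 16. For testis against ovary in wild type E14.5, main 2, it was 1 with no filter, quantile normalization, all probe sets, no variance trend, the replicate block, or the wild-type testis E12.5 arrays averaged. In knock-out E12.5, main 2, it was 1 with the mean of probe sets or without the 3 arrays of high 3′ to 5′ ratio. In knock-out E14.5, main 2, it was 1 with the mean of probe sets, all probe sets, those arrays averaged or without the 3 arrays of opposite-sex signal. By stage in wild-type ovary, main 2, it was 1 with no filter, the mean of probe sets, all probe sets, those arrays averaged, or without either set of 3 arrays, and in wild-type testis, main 2, it was 0 with those arrays averaged or without the opposite-sex arrays. With only the arrays compared, the counts were 0, 0 and 4 in these sex comparisons, taken in the same order, and 0 and 5 by stage in wild-type ovary and testis. With single arrays left out, counts were 0 to 3 for testis against ovary in wild type E12.5, 0 to 2 in the other sex comparisons and the wild-type stage comparisons, 2 to 5 in knock-out ovary by stage, 0 to 1 for the knock-out in ovary E12.5, knock-out testis by stage, the knock-out effect by sex at E12.5 and the sex difference by stage, and 0 to 0 in the rest. Correlations of replicate differences over 28 pairs of groups lay between -0.66 and 0.58, so the numbers do not pair the samples, and the replicate block changed no other count. A crossed pairing, chosen after seeing the data, gave 1 call for the knock-out in ovary E12.5. Signal near background limits Wif1, Rspo2 and the weaker probe sets of Rspo3, Dkk1 and Frzb.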
